A study of Rattus norvegicus with 12 samples.

Results

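The comparison described here is left heart failure against sham surgery without drug treatment, measured in whole lungs of male Sprague-Dawley rats. It holds 6 of the 12 lungs of the series: 3 with heart failure, called CHF as in the labels, and 3 sham lungs, all from the arm that the labels call placebo and the design text calls untreated. They were chosen by their labels alone. Juvenile rats of 91 ± 9 g received a clip around the aorta just above the coronary arteries, and sham rats the same operation without the clip. Lungs were taken 9 weeks later, when, by the design text, banding had led to pulmonary hypertension secondary to heart failure in which the ejection fraction was preserved. The other 6 lungs, 3 CHF and 3 sham, came from rats given the mast cell stabilizer ketotifen fumarate, in drinking water, at 1 mg/kg daily, and their values are given below beside those of the placebo lungs. Arrays 1 and 3 of the CHF ketotifen group were the most alike pair of all arrays (r = 0.993 across probe sets). The labels' protocol names 3 rats a group, but whether these 2 arrays hold separate lungs was not tested, so that the ketotifen CHF group may hold fewer than 3 independent lungs. Each lung was hybridized to 1 Affymetrix rat genome array, and values are the deposited log2 expression values, on which each unit is a factor of 2 in signal.

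In left heart failure, blood backs up behind the failing ventricle, and the raised pressure in the pulmonary veins and capillaries drives fluid and red cells into the alveoli. Macrophages take up the red cells, break down their heme with heme oxygenase and store the iron, and are known in this setting as heart failure cells. Over weeks the vessel walls thicken, mast cells and other leukocytes gather around the vessels, and the pulmonary arteries constrict and remodel.

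Some lungs stood apart from their group. Sham lungs 2 and 3 carried more airway signal than sham lung 1: 13 genes of ciliated cells averaged 5.86, 9.16 and 8.06 in sham lungs 1 to 3 and 6.17, 5.73 and 5.15 in CHF lungs 1 to 3, and 11 genes of club cells 8.34, 10.42 and 11.81 in sham lungs 1 to 3 and 8.48, 7.88 and 9.45 in CHF lungs 1 to 3. The actin control probe sets for the 3′ end read above those for the 5′ end, a gap that widens as RNA degrades, by 3.45, 4.23 and 3.90 in the sham and 3.01, 3.16 and 3.40 in the CHF lungs. Genes of cardiomyocytes averaged 7.15 in sham lung 3 and between 2.81 and 3.39 in the other 5 lungs. CHF lung 1 lay at 38.9 on the first principal component of all 12 arrays, which held 45.7% of the variance, against -4.14 and -12.2 for CHF lungs 2 and 3 and -20.5, -68.0 and -50.9 for the sham lungs. The number of arrays limits the precision here, since an array has no read depth, and 15878 to 16056 probe sets a lung reached a log2 value of 4. The alveolar type 2 gene Sftpc and the type 1 gene Ager, which mark lung tissue, were bright in all 6 lungs, at 15.40 or more and 11.30 or more. In whole lung, a change in the number of cells of a type and a change in RNA per cell cannot be told apart.

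With heart failure, 5 mast cell genes, beta globin and a small set of other genes rose, among them Jchain and Ighl2, which antibody-producing cells use. Limma, fitted to all 12 arrays, called 24 of 16536 probe sets higher (0.145%) and 4 lower (0.0242%) at a Benjamini-Hochberg adjusted p under 0.05. These gave 16 genes higher and 1 lower by any of their probe sets. With 1 probe set a gene, the brightest, 12 of 9788 genes were called higher (0.123%) and 1 lower (0.0102%). The count rests on few lungs: limma called 0 probe sets without sham lung 2 (1982 at an unadjusted p under 0.05), 10 without sham lung 3, 3 without CHF lung 2, 17 without CHF lung 3 and 1496 without sham lung 1. A fit of the 6 placebo arrays alone also called 0, with 2506 at an unadjusted p under 0.05. With the 2 like CHF ketotifen arrays averaged and counted as 1, an alternative chosen after seeing the data, 6 were called.

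Among the genes called, those of mast cells gave the largest differences after globin. Fcer1a, the alpha chain of the receptor that arms mast cells with IgE, read 3.12, 2.65 and 2.68 in sham lungs 1 to 3 and 5.61, 7.03 and 6.33 in CHF lungs 1 to 3. Cpa3, a carboxypeptidase of mast cell granules, read 2.91, 3.22 and 4.52 in sham lungs 1 to 3 and 6.598, 8.38 and 7.78 in CHF lungs 1 to 3. Every CHF lung was above every sham lung for both, and sham values below about 4 lie near the array's background, where the size of a fold is uncertain. Fcer1a rose by 3.50 ± 0.36 SE, adjusted p = 0.0102, and Cpa3 by 4.04 ± 0.62 SE, adjusted p = 0.0327. The granule proteases Mcpt10, Cma1 (chymase) and Mcpt1l1 rose by 3.88 ± 0.47, 3.46 ± 0.48 and 3.63 ± 0.51 (SE; adjusted p = 0.0144, 0.0241 and 0.0247); these family members share probe sequence and may read each other's RNA. The filter on low values left 11 of 16 mast cell genes on the array; 5 of them passed the test and 8 had all CHF lungs above all sham lungs, a separation seen in 13.4% of all 9788 genes. The receptor gene Kit (6.59, 3.91 and 6.01 against 4.93, 5.79 and 5.83) and Hdc, which makes histamine (6.67, 7.84 and 7.34 against 6.15, 6.81 and 6.70), were not among them: their groups overlapped. Genes such as Fcer1a, below 4 in every sham placebo lung, passed the filter only through other arrays, which can raise the count of 8. With no filter, Fcer1a and Mcpt10 still passed. Cpa3, Cma1 and Mcpt1l1 then did not (limma adjusted p = 0.0731, 0.0656 and 0.0656). With ketotifen the CHF minus sham difference was 1.21 ± 0.36 SE, adjusted p = 0.0493 for Fcer1a and 2.99 ± 0.48 SE, adjusted p = 0.00579 for Cma1. It was 2.504 ± 0.51 SE, adjusted p = 0.0146 for Mcpt1l1. Cpa3 (1.11 ± 0.62 SE, adjusted p = 0.247) and Mcpt10 (0.97 ± 0.47 SE, adjusted p = 0.188) did not pass. Limma's interaction term, the ketotifen difference minus the placebo difference, passed for none of these 5 genes (smallest adjusted p = 0.117, for Fcer1a). Sham ketotifen lungs averaged higher than sham placebo lungs in all 5, as in Fcer1a (4.67 against 2.82) and Cpa3 (5.86 against 3.55).

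Letters that GATA factors, the regulators of mast cell and red cell genes, bind are shown in the promoters of Fcer1a and Cpa3, which both hold them. The 250 bases before the RefSeq start (build GRCr8) are printed 5′ to 3′, with AGATAA or its reverse complement TTATCT in capitals.
Fcer1a, chr13:88224680-88224929, minus strand: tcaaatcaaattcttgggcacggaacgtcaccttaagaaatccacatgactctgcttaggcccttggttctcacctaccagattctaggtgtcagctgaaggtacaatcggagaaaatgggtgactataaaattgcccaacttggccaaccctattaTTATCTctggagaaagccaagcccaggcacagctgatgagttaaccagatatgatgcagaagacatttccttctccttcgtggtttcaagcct
Cpa3, chr2:104673238-104673487, minus strand: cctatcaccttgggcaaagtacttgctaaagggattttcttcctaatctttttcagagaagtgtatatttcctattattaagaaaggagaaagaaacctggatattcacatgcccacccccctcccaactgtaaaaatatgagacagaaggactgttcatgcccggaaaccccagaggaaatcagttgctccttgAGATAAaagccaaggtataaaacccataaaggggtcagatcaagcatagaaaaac
In Fcer1a the capitals lie 93 to 88 bases before the start, and in Cpa3 55 to 50. Of 10 mast cell genes with a tabulated promoter, 3 held the letters on either strand (30%), as did 5.6% of the 8182 promoters of measured genes. The holders were Fcer1a, Cma1 and Cpa3, and the called Mcpt10 and Mcpt1l1 were not among them. The letters are a description of the sequence, and a part of GATA factors in these differences was not tested.

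Of 5 red cell genes 1 was called, Hbb, and 4 had all CHF lungs above all sham lungs, beside 0.123% and 13.4% of all genes. Hbb, which encodes beta globin, read 7.66, 7.99 and 9.64 in sham lungs 1 to 3 and 12.36, 14.01 and 14.95 in CHF lungs 1 to 3, and rose 40.5-fold (5.34 ± 0.64 SE, adjusted p = 0.0144). Another 4 probe sets, which match more than 1 alpha globin or beta globin gene, also rose, by 4.08 to 5.73. Hbb also rose in the ketotifen lungs, by 2.59 ± 0.64 SE, adjusted p = 0.027. Alas2, which starts heme synthesis in immature red cells, read 2.72, 3.35 and 2.96 in sham lungs 1 to 3 and 4.08, 7.23 and 9.40 in CHF lungs 1 to 3. It was near background in all sham lungs and in CHF lung 1, and high in CHF lungs 2 and 3 (3.89 ± 0.96 SE, adjusted p = 0.107). Bpgm makes the phosphoglycerate that loosens oxygen from hemoglobin. Its dimmer probe set rose by 1.61 ± 0.24 SE, adjusted p = 0.0301, and the brighter one gave 0.81 ± 0.19 SE, adjusted p = 0.102. Car2, the carbonic anhydrase of red cells and of other cell types, read 7.999, 7.61 and 7.92 in sham lungs 1 to 3 and 9.06, 9.30 and 9.48 in CHF lungs 1 to 3, a rise of 1.44 ± 0.16 SE, adjusted p = 0.0102; a second, brighter probe set gave 0.73 ± 0.12 SE, adjusted p = 0.0551. Within the CHF group, lung 1 had the lowest Hbb, Alas2 and, by the called probe set, Car2. Hbb and Alas2 differed widely among the 3 CHF lungs, while Car2 differed little. The ketotifen difference for Car2 was 0.10 ± 0.16 SE, adjusted p = 0.681, and the interaction of surgery and drug passed (adjusted p = 0.0336). By this probe set Car2 averaged 8.71 in sham ketotifen lungs and 7.84 in sham placebo lungs. Blood left in a lung carries red cell RNA, and its part in these values was not tested.

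Jchain, Ighl2 and Fcrla, genes of antibody-producing cells and B cells, rose, while others of these cells did not pass. Jchain, which joins antibody units into polymers, read 4.38, 5.40 and 5.44 in sham lungs 1 to 3 and 7.36, 7.79 and 7.13 in CHF lungs 1 to 3 by its called probe set (2.36 ± 0.36 SE, adjusted p = 0.0306), and 8.42, 9.86 and 9.66 against 11.24, 11.17 and 10.78 by a brighter one (1.75 ± 0.48 SE, adjusted p = 0.115). Ighl2, an immunoglobulin heavy chain gene, rose by 2.54 ± 0.38 SE, adjusted p = 0.0291, and Fcrla, a B cell gene related to Fc receptors, by 2.93 ± 0.41 SE, adjusted p = 0.0241. Mzb1 and Xbp1, which plasma cells use to fold and secrete antibody, gave 1.05 (adjusted p = 0.301) and 0.49 (adjusted p = 0.124). By the brightest probe set 0 of 6 plasma cell genes were called and 3 separated the groups upward (median 0.42), while of 8 B cell genes 1 did and of 9 T cell genes 1 did, near the 13.4% of all genes. The B cell surface gene Ms4a1 did not separate the groups (2.501, 4.99 and 4.41 against 3.36, 4.77 and 4.797). With ketotifen Ighl2 rose as well (1.92 ± 0.38 SE, adjusted p = 0.0128) and Fcrla was at -0.77 ± 0.41 SE, adjusted p = 0.219, and the interaction of surgery and drug passed for Fcrla (adjusted p = 0.0241). Fcrla averaged 10.15 in sham ketotifen lungs and 7.21 in sham placebo lungs. Jchain did not pass with ketotifen, at 0.81 ± 0.36 SE, adjusted p = 0.152 by its called probe set. The brighter Jchain probe set gave 1.335 ± 0.48 SE, adjusted p = 0.0863.

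Lgals1, Aspa, Pak1ip1, Atp8b4 and Htr2c belong to none of these cell types alone. Lgals1 encodes galectin-1, a secreted lectin of stroma and activated leukocytes. It read 9.87, 10.03 and 9.66 in sham lungs 1 to 3 and 11.25, 10.75 and 10.95 in CHF lungs 1 to 3 and rose 2.19-fold (1.13 ± 0.18 SE, adjusted p = 0.0352), a bright gene with a gap between the groups larger than the spread within either. Aspa, which splits acetylaspartate, rose by 1.15 ± 0.19 SE, adjusted p = 0.0451, from 5.69, 5.56 and 5.20 against 6.89, 6.56 and 6.45. Aspa rose in the ketotifen lungs by nearly the same amount (1.11 ± 0.19 SE, adjusted p = 0.0066), Pak1ip1 (0.92) and Atp8b4 (0.97) rose, and Lgals1 (0.31) and Htr2c (0.65) did not pass. In sham ketotifen lungs Lgals1 averaged 10.95, against 9.85 in sham placebo lungs, and Htr2c 3.44 against 3.11. The called probe set of Pak1ip1, a ribosome assembly gene, read 5.99, 5.84 and 5.89 in sham lungs 1 to 3 and 7.12, 6.94 and 7.04 in CHF lungs 1 to 3; its SDs within groups were 0.076 and 0.09, the tightest of these 5 genes. It rose by 1.12 ± 0.18 SE, adjusted p = 0.0352, while its brighter probe set gave 0.62 ± 0.24 SE, adjusted p = 0.201. Atp8b4, of the phospholipid flippase family, rose by 2.00 ± 0.27 SE, adjusted p = 0.0241. Htr2c, a serotonin receptor gene, read 3.41, 2.96 and 2.96 in sham lungs 1 to 3 and 6.74, 5.31 and 5.72 in CHF lungs 1 to 3, near background in every sham lung, and rose by 2.81 ± 0.39 SE, adjusted p = 0.0241. A probe set shared by Psmb6, a proteasome subunit gene, and a copy of it rose by 0.93 ± 0.14 SE (adjusted p = 0.028). Another that matches 4 gene symbols rose by 2.97 ± 0.34 SE (adjusted p = 0.0107). Probe sets with no gene symbol rose by 1.92 ± 0.21 SE (adjusted p = 0.0102) and 1.76 ± 0.29 SE (adjusted p = 0.0471).

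Cep162, a gene of centrioles and cilia, was the gene called lower: it read 5.61, 6.05 and 6.09 in sham lungs 1 to 3 and 4.38, 4.64 and 4.37 in CHF lungs 1 to 3 (-1.46 ± 0.19 SE, adjusted p = 0.0221). It was highest in sham lungs 2 and 3, which carried more ciliated cell signal, and the part of that signal was not tested. With ketotifen the Cep162 difference was -0.26 ± 0.19 SE, adjusted p = 0.374, and sham ketotifen lungs averaged 4.93. The other 3 probe sets called lower have no gene symbol. Just below the threshold lay Fat1, a large cadherin (11.16, 11.40 and 11.26 against 10.22, 10.29 and 10.07, -1.08 ± 0.19 SE, adjusted p = 0.0604), Appl2, an endosome adaptor (7.58, 8.10 and 8.06 against 6.58, 6.98 and 6.77, -1.13 ± 0.19 SE, adjusted p = 0.0581), the growth factor receptor gene Erbb2 (-1.46 ± 0.29 SE, adjusted p = 0.0746), and Ppargc1a, which drives mitochondrial gene expression (6.35, 6.05 and 6.33 against 3.75, 4.73 and 4.38, -1.95 ± 0.39 SE, adjusted p = 0.0765). The groups did not overlap for any of these 4. Jhy (4.78, 5.996 and 5.47 against 4.04, 3.93 and 3.51, adjusted p = 0.0604), Iqub (5.98, 7.42 and 7.56 against 5.18, 4.82 and 5.03, adjusted p = 0.0746) and Ift81 (adjusted p = 0.0636) lay there too. Fat1, Appl2, Jhy and Iqub were highest in sham lungs 2 and 3, the lungs of high airway signal, while Erbb2, Ppargc1a and Ift81 were not. The part of that signal was not tested. Among the genes of next smallest p on the higher side were Fbl, a nucleolar methyltransferase (8.99, 9.01 and 8.97 against 9.84, 9.55 and 9.60, 0.67 ± 0.12 SE, adjusted p = 0.0581) and Gpihbp1, which anchors lipoprotein lipase on capillaries (1.72 ± 0.32 SE, adjusted p = 0.0629). The interferon-induced Mx2 read 3.40, 3.48 and 2.93 against 7.52, 8.10 and 5.11 by 1 probe set (3.64 ± 0.66 SE, adjusted p = 0.0604), while its brighter probe set overlapped between the groups (-0.33 ± 0.44 SE, adjusted p = 0.718). Wtap, a subunit of the RNA methylation complex, was higher in placebo CHF lungs (0.98 ± 0.17 SE, adjusted p = 0.0604) and lower in ketotifen CHF lungs (-0.59), with an interaction adjusted p of 0.0242.

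**Figure D1:**
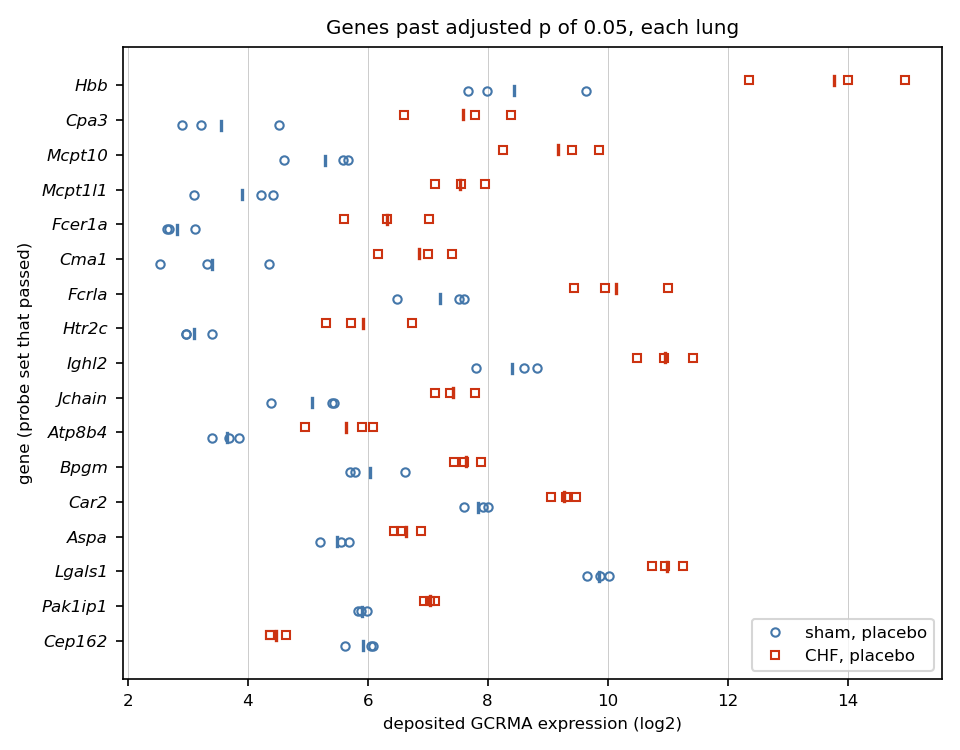
Deposited log2 expression (horizontal axis) of the 17 genes with a single symbol that passed an adjusted p of 0.05, by the probe set that passed. Circles are the 3 sham and squares the 3 CHF placebo lungs, and short bars the group means. The groups do not overlap in any of the 17 genes, and Cep162 is the one that is lower in CHF.

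Across the ketotifen lungs, heart failure differed from sham in many more probe sets: 1052 of 16536 (6.36%) were called higher and 1093 (6.61%) lower. In turn, 22.2% of genes had all CHF above all sham lungs and 20.3% all below. Of the 28 probe sets called in the placebo lungs, 24 had the same sign there and 11 were also called in that direction. The 2 comparisons share no lung, but their error is estimated in the same fit.

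Below, gene lists are described by how many members had all 3 CHF lungs above or below all 3 sham lungs, beside 13.4% higher and 11.6% lower over all genes, and by the median difference, which was 0.01 over all genes. Apart from 5 mast cell genes, Hbb and Htr2c, no gene of any list was called by its brightest probe set. Among lists of 10 or more measured genes, those with the largest shares above were mast cells, lysosome and phagocytosis, lipid-laden macrophages, monocytes, MHC class II and the cell cycle. Among the same lists, club cells and cardiomyocytes had the largest shares below.

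**Figure D2:**
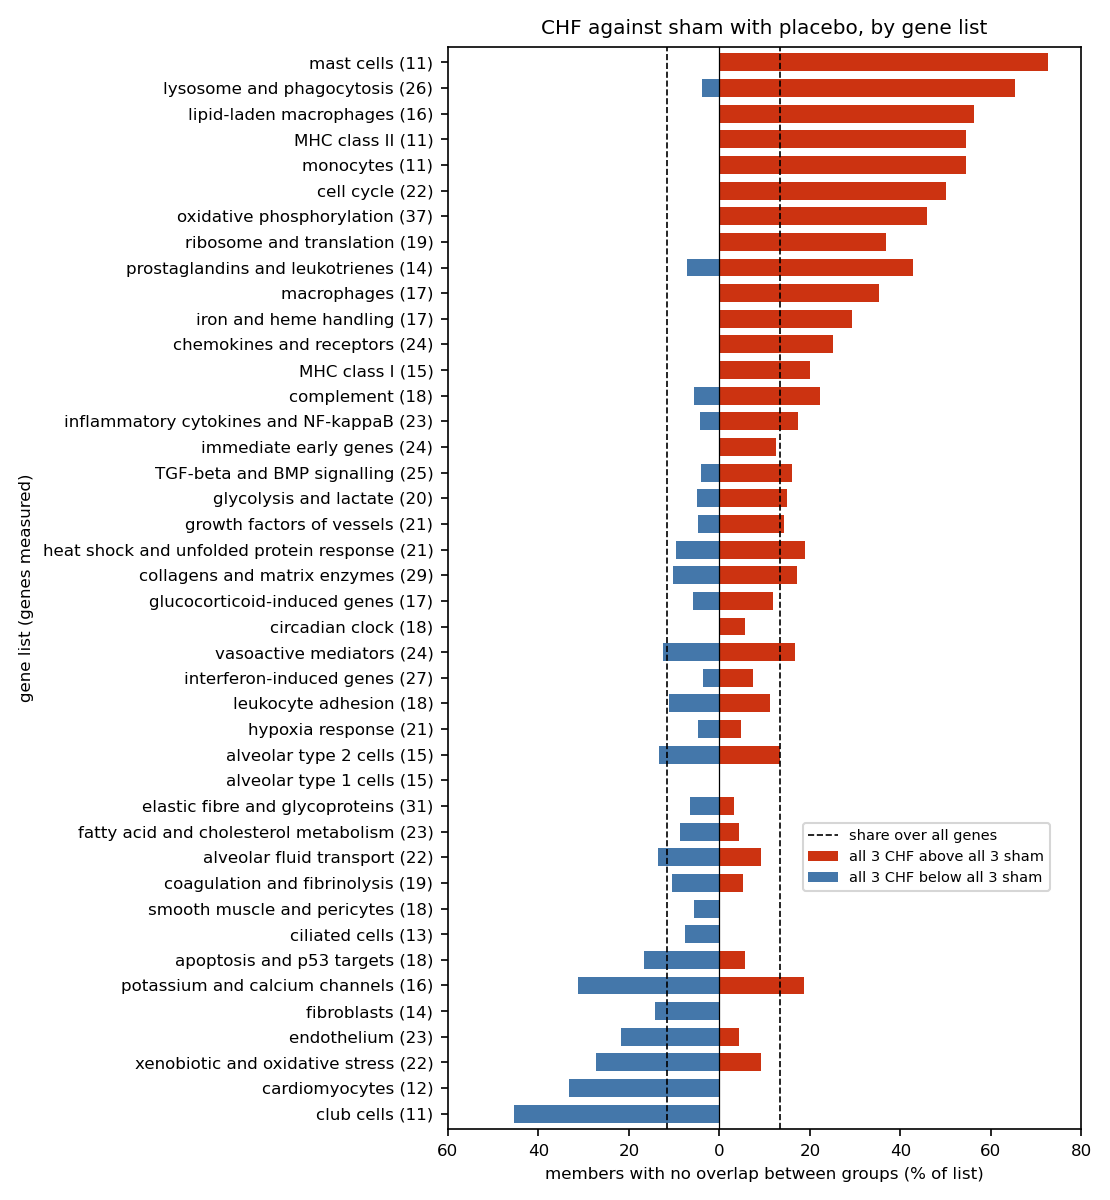
Share of the members of each gene list (lists of 10 or more measured genes; the number measured is in brackets) whose 3 CHF placebo lungs lay all above (red, right) or all below (blue, left) the 3 sham lungs, in percent of the list. Dashed lines are the shares over all 9788 genes, 13.4% and 11.6%; lysosome and phagocytosis genes reach 65.4% above and club cell genes 45.5% below.

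Macrophage genes read higher in CHF, without a called member. Itgax, the CD11c integrin chain of alveolar macrophages and dendritic cells, read 6.01, 4.61 and 5.25 in sham lungs 1 to 3 and 8.25, 6.88 and 7.60 in CHF lungs 1 to 3 (2.29 ± 0.40 SE, adjusted p = 0.0604). Cd68, of macrophage endosomes, read 8.32, 5.19 and 6.67 in sham lungs 1 to 3 and 10.32, 8.40 and 8.49 in CHF lungs 1 to 3 (2.34 ± 0.69 SE, adjusted p = 0.127), and Adgre1, the F4/80 antigen, 5.30, 4.76 and 5.05 against 7.01, 6.21 and 5.85 (1.32 ± 0.29 SE, adjusted p = 0.092). CHF lung 1 was highest and sham lung 2 lowest in all 3 genes, and for Cd68 sham lung 1 lay just below CHF lung 2. Of 17 macrophage genes 6 separated the groups upward and 0 downward, with a median of 1.03. Sham lung 2 was the lowest of the 6 lungs in 16 of the 17, against 27.4% of all genes, and the median was 0.42 against sham lung 1 alone. The part of the airway and RNA values of sham lungs 2 and 3, given above, in these differences was not tested. Of 15 macrophage genes with a tabulated promoter, 9 held GAGGAA, which the myeloid factor PU.1 binds, or its reverse complement TTCCTC (60%, against 22.9% of the 8182 promoters of measured genes). A part of PU.1 in these differences was not tested. In the ketotifen lungs 13 of the 17 separated upward, with a median of 1.94, and Itgax (1.96) and Adgre1 (1.39) rose there.

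Of the genes of macrophages loaded with lipid or debris, 9 of 16 separated the groups upward and 0 downward, with a median of 0.98, or 0.56 against sham lung 1 alone. Cd36, a scavenger receptor for oxidized lipid, read 10.26, 9.67 and 9.995 in sham lungs 1 to 3 and 11.12, 10.94 and 10.66 in CHF lungs 1 to 3 (0.93 ± 0.18 SE, adjusted p = 0.0705). Apoe, which carries cholesterol out of macrophages, read 9.96, 10.26 and 10.23 against 11.18, 10.83 and 10.92 (0.83 ± 0.20 SE, adjusted p = 0.102). For both, the 3 sham lungs lay close together and every CHF lung was above them. Lgals3 (galectin-3, 1.14 ± 0.27 SE, adjusted p = 0.101), the fatty acid binding protein gene Fabp5 (1.96 ± 0.47 SE, adjusted p = 0.102) and Gpnmb (2.07 ± 0.58 SE, adjusted p = 0.123) also separated the groups. Spp1, osteopontin, read 6.52, 2.43 and 5.42 in sham lungs 1 to 3 and 11.14, 8.16 and 6.01 in CHF lungs 1 to 3, so that CHF lung 3 fell below sham lung 1, and Trem2, a lipid receptor of these cells, read 2.63, 2.79 and 2.62 against 6.39, 4.50 and 2.96. Both were highest in CHF lung 1, and in the ketotifen lungs both rose (7.68 and 4.35), as did Cd36 (1.11), Apoe (1.33), Lgals3 (1.56) and Fabp5 (2.05).

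The lysosome and phagocytosis list, the machinery by which macrophages take up and digest particles, had 17 of 26 members with all CHF above all sham lungs (65.4%) and 1 below. Among the receptors for antibody-coated particles, Fcgr1a read 7.16, 5.84 and 6.79 in sham lungs 1 to 3 and 8.96, 7.58 and 7.99 in CHF lungs 1 to 3 (1.58 ± 0.37 SE, adjusted p = 0.0999) and Fcgr3a 8.58, 6.002 and 7.83 against 10.38, 8.87 and 9.59 (2.14 ± 0.56 SE, adjusted p = 0.114). Their signalling adaptor Tyrobp gave 1.57 ± 0.38 SE, adjusted p = 0.102. The oxidase that makes superoxide in the phagosome was represented by Cyba (8.28, 6.29 and 7.42 against 9.998, 8.66 and 9.000, 1.89 ± 0.46 SE, adjusted p = 0.102). Among the digestive proteases, Ctsz read 9.31, 8.16 and 8.55 against 11.04, 9.53 and 9.75 (1.43 ± 0.38 SE, adjusted p = 0.114) and cathepsin D, Ctsd, 12.06, 10.56 and 11.28 against 12.97, 12.07 and 12.25 (1.13 ± 0.37 SE, adjusted p = 0.149). For Ctsd, sham lung 1 lay just below CHF lung 2, and sham lungs 2 and 3 well below it. Membrane proteins of the lysosome gave smaller differences. Lamp2 separated the groups upward (12.62, 12.30 and 12.39 against 12.89, 12.70 and 12.90, 0.39 ± 0.12 SE, adjusted p = 0.127), Lamp1 overlapped (12.89, 12.85 and 12.88 against 12.87, 12.70 and 12.84), and the calcium channel gene Mcoln1 was the 1 member below (7.34, 7.01 and 7.13 against 7.01, 6.99 and 6.997). Cd63, of the lysosome and of secretory granules, gave 0.71 ± 0.20 SE, adjusted p = 0.122. Sham lung 2 was lowest in 21 and CHF lung 1 highest in 21 of the 26 genes, against 27.4% and 31.6% of all genes. The median was 0.78, 0.40 against sham lung 1 alone and 0.50 without CHF lung 1. In the ketotifen lungs 23 of the 26 separated upward, with a median of 1.06.

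**Figure D3:**
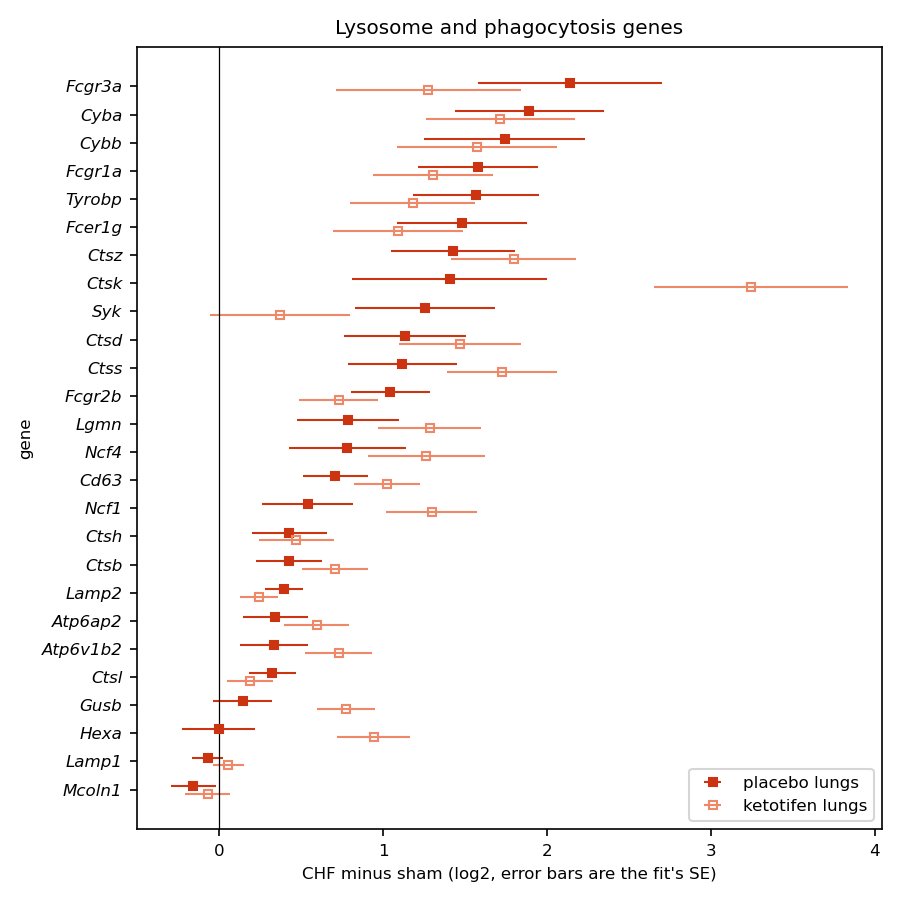
CHF minus sham difference (log2, with the SE of the fit) of the 26 lysosome and phagocytosis genes, in placebo lungs (filled) and ketotifen lungs (open). In placebo lungs Fcgr3a is highest at 2.14 and Mcoln1 lowest at -0.16, and no gene passed an adjusted p of 0.05 there.

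Many lysosome genes carry the letters TCACGTG, bound by the factors that switch on lysosome formation. Of 18 list members with a tabulated promoter, 3 held them or the reverse complement CACGTGA (16.7%), namely Ctsd, Mcoln1 and Lamp1, as did 5.15% of the 8182 promoters of measured genes. The stretches of Ctsd, which separated the groups, and of Lamp1, which did not, are set side by side because both hold the letters, in capitals, within the 250 bases before the start (GRCr8).
Ctsd, chr1:206968822-206969071, minus strand: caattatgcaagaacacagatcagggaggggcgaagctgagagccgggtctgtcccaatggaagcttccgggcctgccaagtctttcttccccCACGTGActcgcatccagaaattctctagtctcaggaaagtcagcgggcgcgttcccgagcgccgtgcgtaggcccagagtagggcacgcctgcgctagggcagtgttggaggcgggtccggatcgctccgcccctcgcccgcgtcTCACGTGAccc
Lamp1, chr16:83075064-83075313, minus strand: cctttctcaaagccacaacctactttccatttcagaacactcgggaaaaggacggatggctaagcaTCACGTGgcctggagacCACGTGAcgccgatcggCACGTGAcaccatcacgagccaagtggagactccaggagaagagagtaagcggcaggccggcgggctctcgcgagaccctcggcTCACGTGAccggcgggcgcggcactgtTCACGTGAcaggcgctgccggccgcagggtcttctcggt
Ctsd holds 2 such stretches, at 157 to 151 and at 11 to 4 bases before the start, and Lamp1 holds 5, between 184 and 32 bases before it. The letters are a description of the sequence, and the 3 holders differed in their values: 1.13 for Ctsd, -0.16 for Mcoln1 and -0.07 for Lamp1.

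Monocyte genes gave 6 of 11 above and 0 below. Clec4a3, a lectin receptor of the circulating, non-classical monocyte, read 7.91, 6.84 and 7.45 in sham lungs 1 to 3 and 9.36, 8.51 and 8.46 in CHF lungs 1 to 3 (1.38 ± 0.28 SE, adjusted p = 0.0797). Ly6c overlapped between the groups (11.18, 10.70 and 11.06 against 9.88, 11.36 and 11.76), and a difference between monocyte subsets was not tested. Among neutrophil genes 0 of 5 separated the groups, and S100a8 was lowest in CHF lung 1 and highest in CHF lung 3 (8.17, 6.38 and 8.29 against 6.17, 8.03 and 9.54).

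Antigen presentation by MHC class II followed, with 6 of 11 above and 0 below (median 0.56, 0.24 against sham lung 1 alone). The largest differences were in genes that process and load peptides: RT1-DMa and RT1-DMb, the 2 chains of the peptide exchanger, gave 1.38 ± 0.38 SE, adjusted p = 0.119 and 1.202 ± 0.26 SE, adjusted p = 0.0906. RT1-DMb read 9.19, 8.19 and 8.63 in sham lungs 1 to 3 and 10.42, 9.63 and 9.56 in CHF lungs 1 to 3, and Ifi30, a lysosomal reductase, 9.72, 8.90 and 9.25 against 11.20, 10.10 and 10.24 (1.22 ± 0.29 SE, adjusted p = 0.101). The presenting chain gene RT1-Db1 gave 0.34 ± 0.12 SE, adjusted p = 0.169, and the invariant chain gene Cd74 0.07 ± 0.14 SE, adjusted p = 0.819. With ketotifen RT1-DMb (1.81) and RT1-Db1 (1.07) rose.

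Chemokine genes gave 6 of 24 above and 0 below. Ccl2, which draws monocytes from blood, read 3.88, 3.62 and 3.91 in sham lungs 1 to 3 and 6.18, 5.48 and 4.84 in CHF lungs 1 to 3: all sham lungs were near background and all CHF lungs above them (1.70 ± 0.31 SE, adjusted p = 0.0636). Ccl9, another attractant of myeloid cells, read 8.05, 6.42 and 7.83 against 11.22, 9.53 and 9.81 (2.76 ± 0.65 SE, adjusted p = 0.101). Il6 was above background in CHF lung 1 alone (2.498, 2.56 and 2.48 against 5.73, 2.52 and 2.49). Socs3, a brake on cytokine signalling that cytokines induce, was near background in the sham lungs and at 4.45 or more in each CHF lung (3.05, 2.17 and 2.22 against 4.45, 4.74 and 4.64, 2.13 ± 0.41 SE, adjusted p = 0.0725). The inflammatory cytokine list as a whole, with 4 of 23 above and 1 below, and interferon-induced genes, with 2 of 27 above and 1 below, were near or below the background. Ifit1, of the interferon response, gave 0.73 ± 0.35 SE, adjusted p = 0.276 in the placebo and -2.36 ± 0.35 SE, adjusted p = 0.00428 in the ketotifen lungs (interaction adjusted p = 0.0279). Ccl2 and Il6 rose in the ketotifen lungs (6.53 and 8.48), and the interaction passed for both (adjusted p = 0.000901 and 0.00763).

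The prostaglandin and leukotriene list had 7 members with a difference above 0 and 7 below, and none was called. Alox5 and its activating protein Alox5ap, which make leukotriene A4, read 5.74, 4.95 and 5.43 in sham lungs 1 to 3 and 6.42, 6.65 and 6.45 in CHF lungs 1 to 3 (1.13 ± 0.28 SE, adjusted p = 0.109) and 7.56, 5.08 and 6.85 against 8.82, 8.04 and 8.44 (1.94 ± 0.50 SE, adjusted p = 0.113). Lta4h, which turns it into the leukocyte attractant leukotriene B4, read 11.15, 10.37 and 10.56 against 12.18, 11.31 and 11.65 (1.02 ± 0.26 SE, adjusted p = 0.109). Tbxas1, the synthase of the constrictor thromboxane, gave 1.57 ± 0.41 SE, adjusted p = 0.113, and Alox15, an oxygenase of eosinophils and macrophages, 4.002, 5.60 and 5.18 against 6.88, 6.37 and 7.85 (2.11 ± 0.42 SE, adjusted p = 0.0746). In each of these 5 genes all CHF lungs were above all sham lungs. The prostaglandin breakdown and transport genes Hpgd (9.99, 9.07 and 9.67 against 7.62, 8.85 and 9.78) and Slco2a1 (12.39, 11.78 and 12.57 against 10.83, 12.01 and 11.97) overlapped between groups. Of 14 members 6 were above, the last of them Ptger3, a prostaglandin receptor gene (0.45 ± 0.26 SE, adjusted p = 0.36), and 1, the synthase gene Ptges2, below (-0.42 ± 0.27 SE, adjusted p = 0.415). The list median of 0.22 turned to -0.04 without sham lung 1. The inducible cyclooxygenase Ptgs2 was at -0.24 ± 0.46 SE, adjusted p = 0.811 in the placebo lungs, and rose in the ketotifen lungs (3.85 ± 0.46 SE, adjusted p = 0.00131; interaction adjusted p = 0.0258). With ketotifen Alox15 (2.05), Lta4h (1.01) and Tbxas1 (1.96) rose, while Alox5 was at 0.42 (adjusted p = 0.342).

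Genes of heme and iron handling, the task of macrophages that take up red cells, read higher in some members. Hmox1, heme oxygenase, read 7.18, 6.04 and 6.94 in sham lungs 1 to 3 and 10.25, 8.27 and 7.83 in CHF lungs 1 to 3 (2.06 ± 0.58 SE, adjusted p = 0.123), and Blvra, which reduces the biliverdin it makes, 8.18, 6.68 and 7.29 against 9.73, 8.59 and 9.001 (1.73 ± 0.40 SE, adjusted p = 0.101). Ncoa4, which delivers ferritin to the lysosome, read 11.01, 10.16 and 10.51 against 11.21, 11.01 and 11.23 (0.59 ± 0.19 SE, adjusted p = 0.144). Of 17 genes 5 were above and 0 below, with a median of 0.44, or 0.33 against sham lung 1 alone. Hmox1 was highest in CHF lung 1, the lung with the lowest Hbb of its group. Hmox1 rose in the ketotifen lungs (3.60 ± 0.58 SE, adjusted p = 0.00579).

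Cell cycle genes had all CHF lungs above all sham lungs in 11 of 22 members and below in 0, with a median of 0.68 (0.56 against sham lung 1 alone). Ube2c, which drives mitotic exit, read 2.29, 2.87 and 2.47 in sham lungs 1 to 3 and 5.35, 3.86 and 3.38 in CHF lungs 1 to 3 (1.65 ± 0.43 SE, adjusted p = 0.112). Cdk1, the mitotic kinase, read 3.98, 3.33 and 3.26 against 6.48, 4.87 and 3.95, where CHF lung 3 fell below sham lung 1. Ccnb2, a mitotic cyclin, read 5.26, 5.27 and 5.27 against 7.15, 5.81 and 5.40, and Pcna, the replication clamp, 9.94, 9.87 and 10.12 against 10.55, 10.26 and 10.25 (0.38 ± 0.12 SE, adjusted p = 0.147). CHF lung 1 was highest in 20 of the 22 genes, and without it the median was 0.25. The list mean was 4.67, 4.79 and 4.72 in sham lungs 1 to 3 and 6.11, 4.99 and 4.83 in CHF lungs 1 to 3. Aurkb went the other way, at 6.70, 10.45 and 9.99 against 6.35, 6.78 and 6.74, high in sham lungs 2 and 3. In the ketotifen lungs all 22 members separated upward, with a median of 2.10.

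Mitotic genes often carry the letters TTTGAA near their start, where repressor complexes of resting cells bind. Of 17 cell cycle members with a tabulated promoter, 6 held TTTGAA or its reverse complement TTCAAA (35.3%), among them Cdk1 and Ccnb2, as did 9.69% of the 8182 promoters of measured genes. Both are shown, with those letters in capitals, because both rose in the ketotifen lungs, among 18 of the 22 list members that were called higher there.
Cdk1, chr20:19265043-19265292, plus strand: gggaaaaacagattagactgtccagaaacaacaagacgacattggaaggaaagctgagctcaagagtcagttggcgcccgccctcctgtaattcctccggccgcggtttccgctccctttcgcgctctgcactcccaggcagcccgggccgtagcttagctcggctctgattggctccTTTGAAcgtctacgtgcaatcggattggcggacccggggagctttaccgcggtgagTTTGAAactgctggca
Ccnb2, chr8:79981659-79981908, minus strand: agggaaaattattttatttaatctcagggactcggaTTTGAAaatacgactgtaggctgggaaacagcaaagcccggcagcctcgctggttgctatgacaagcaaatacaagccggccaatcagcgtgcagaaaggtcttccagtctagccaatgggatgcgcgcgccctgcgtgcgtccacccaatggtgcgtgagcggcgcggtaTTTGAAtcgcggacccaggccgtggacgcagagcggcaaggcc
In Cdk1 the capitals lie at 72 to 67 and 16 to 11 bases before the start, and in Ccnb2 at 214 to 209 and 43 to 38. A part of the repressor complexes in these differences was not tested.

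Mitochondrial and ribosomal genes differed by small amounts. For oxidative phosphorylation 17 of 37 genes were above and 0 below (45.9% against 13.4% of all genes), while the median was 0.23, and 0.22 against sham lung 1 alone. Cox5b and Cox7b, subunits of the oxygen-consuming complex, read 9.68, 9.32 and 9.46 in sham lungs 1 to 3 and 10.56, 10.01 and 10.01 in CHF lungs 1 to 3 (0.71 ± 0.18 SE, adjusted p = 0.109) and 11.59, 11.54 and 11.50 against 12.30, 11.86 and 12.02 (0.52 ± 0.15 SE, adjusted p = 0.125). Uqcrfs1, of the cytochrome bc1 complex, gave 0.48 ± 0.14 SE, adjusted p = 0.124. CHF lung 1 was the highest lung in 33 of the 37 genes, and the list mean was 10.10, 10.08 and 10.09 in sham lungs 1 to 3 and 10.54, 10.23 and 10.25 in CHF lungs 1 to 3. Of the 33 members with a tabulated promoter, 2 held GCGCATGCG, which nuclear respiratory factor binds, or its reverse complement (6.06%, against 3.2% of the 8182 promoters). Ribosomal and translation genes gave 7 of 19 above and 0 below, with a median of 0.17, and Rplp0, of the ribosomal stalk, read 13.50, 13.18 and 13.37 against 14.01, 13.68 and 13.75 (0.46 ± 0.12 SE, adjusted p = 0.114). CHF lung 1 was the highest lung in 3 of these 19 genes.

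**Figure D4:**
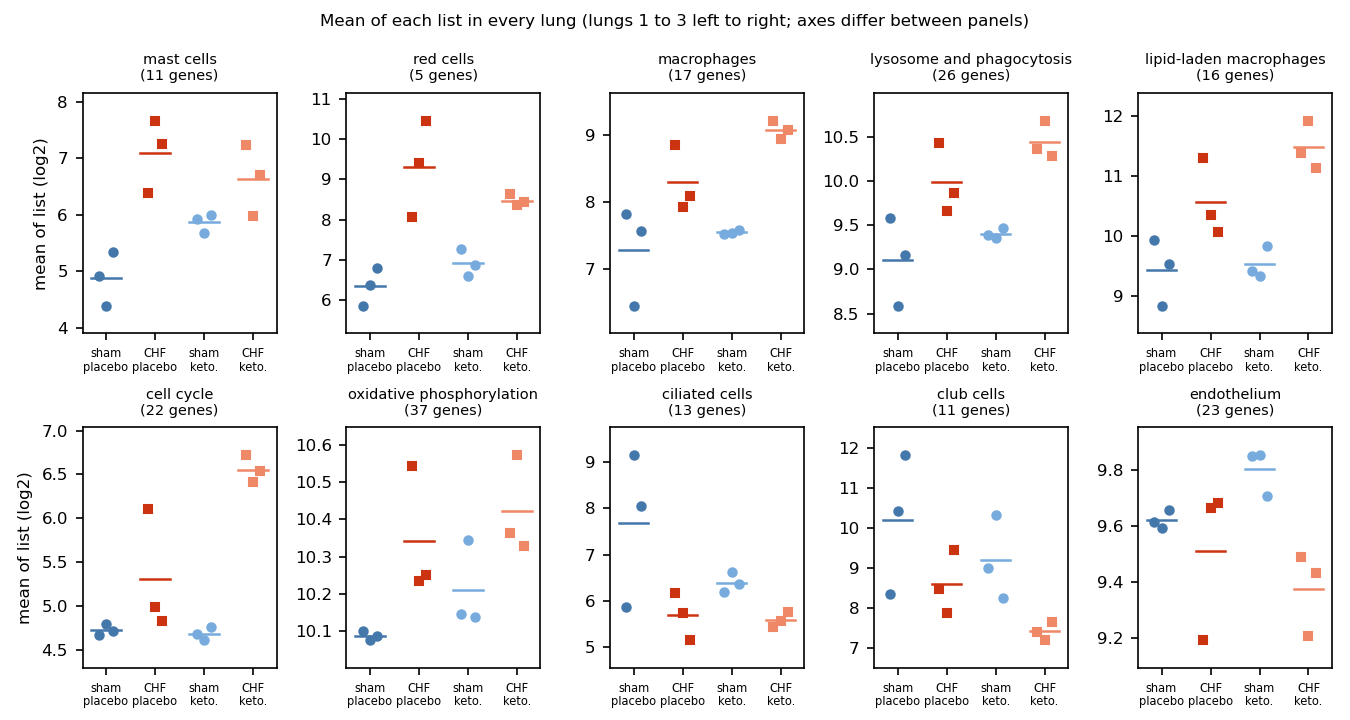
Mean log2 value of 10 gene lists in each of the 12 lungs, with lungs 1 to 3 of a group from left to right, group means as bars and a separate vertical axis per panel. CHF placebo lung 1 is the highest placebo lung for macrophage, lysosome and cell cycle genes, and sham placebo lungs 2 and 3 are the highest of all 12 for ciliated cell genes.

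Epithelial genes split by cell type. Club cells, the secretory cells of the small airways, had 0 of 11 genes above and 5 below, with a median of -1.02 and of -0.21 against sham lung 1 alone. Aldh1a1, which oxidizes retinal, read 11.82, 13.53 and 12.92 in sham lungs 1 to 3 and 11.01, 11.63 and 11.54 in CHF lungs 1 to 3 (-1.36 ± 0.35 SE, adjusted p = 0.109), and Cyp2f4, an airway cytochrome P450, 7.11, 11.43 and 10.79 against 5.91, 4.69 and 5.59 (-4.38 ± 1.13 SE, adjusted p = 0.111). In both, sham lung 1 was nearer to the CHF lungs than to sham lungs 2 and 3. Of 13 ciliated cell genes 1 separated downward, Tppp3 (11.85, 13.57 and 12.64 against 11.30, 11.74 and 11.62), and Dnai1, a motor of the cilium, was high in sham lungs 2 and 3 alone (2.31, 7.25 and 6.14 against 2.49, 2.06 and 2.19). The ciliated median of -2.19 became -0.18 against sham lung 1. Among alveolar type 2 genes, 2 of 15 were above and 2 below: Scd, the desaturase of surfactant lipid synthesis, read 6.73, 8.50 and 8.13 in sham lungs 1 to 3 and 10.84, 10.10 and 9.59 in CHF lungs 1 to 3 (2.39 ± 0.47 SE, adjusted p = 0.0746), the protease gene Napsa gave 0.89 ± 0.27 SE, adjusted p = 0.127, and the lineage factor Nkx2-1 -0.44 ± 0.19 SE, adjusted p = 0.239. None of the 15 type 1 cell genes separated the groups.

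**Figure D5:**
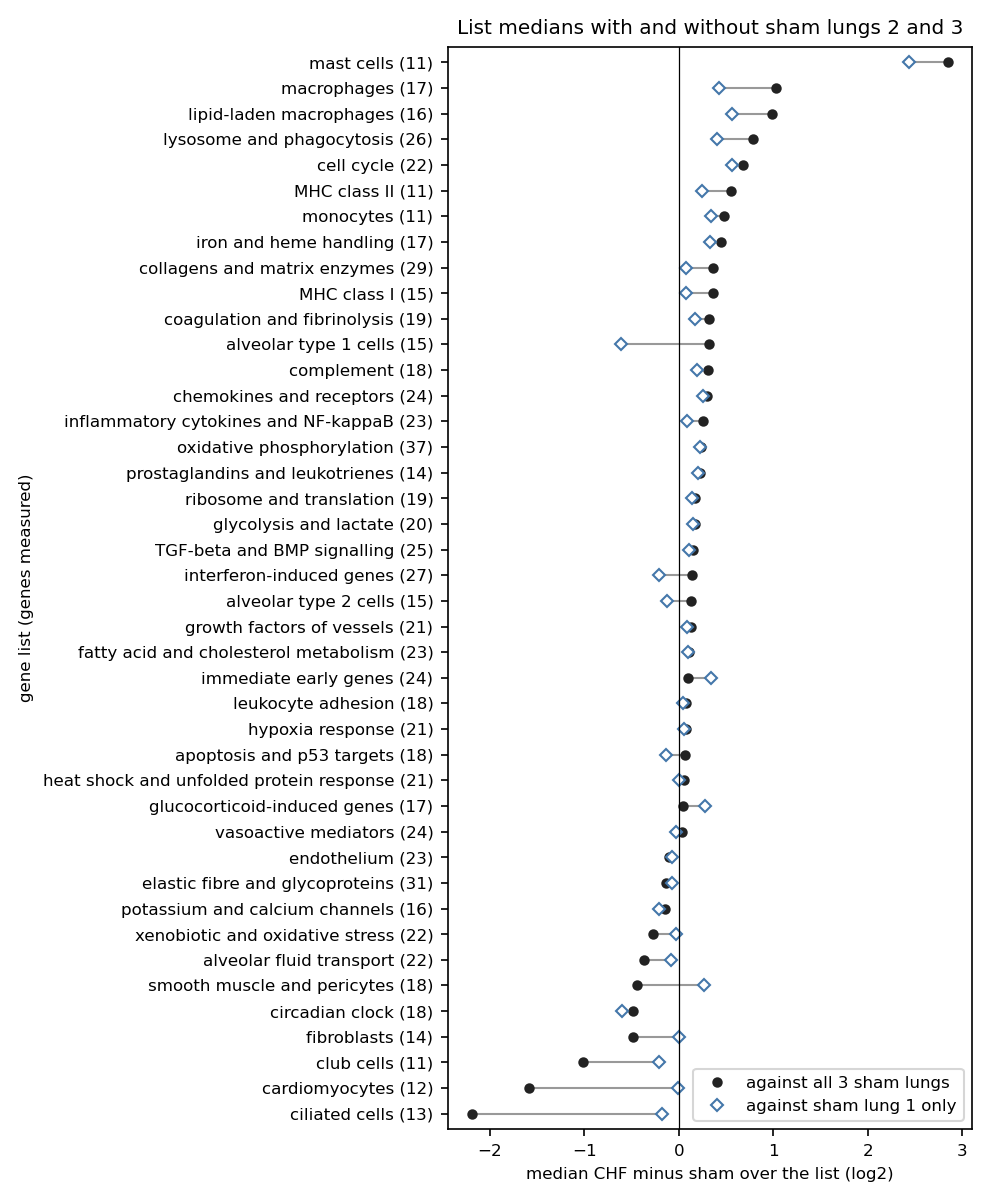
Median CHF minus sham difference (log2) of each list of 10 or more measured genes, against all 3 sham lungs (filled circles) and against sham lung 1 alone (open diamonds). Ciliated cells move from -2.19 to -0.18 and club cells from -1.02 to -0.21, while mast cells stay above 2.4 and oxidative phosphorylation stays at 0.22 to 0.23.

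Fluid clearance from the alveolus depends on sodium and chloride transport. Ano1, a calcium-activated chloride channel of airway and smooth muscle cells, read 7.78, 8.95 and 8.32 in sham lungs 1 to 3 and 7.34, 7.07 and 6.94 in CHF lungs 1 to 3 (-1.23 ± 0.25 SE, adjusted p = 0.0797). Fxyd5, a modulator of the sodium pump, read 8.72, 7.29 and 8.14 against 10.31, 9.21 and 9.37 (1.58 ± 0.35 SE, adjusted p = 0.0924), and Sgk1, the kinase that keeps sodium channels at the surface, 10.65, 10.12 and 10.66 against 11.96, 11.20 and 10.96 (0.90 ± 0.28 SE, adjusted p = 0.141). Of 22 genes of this list 2 were above and 3 below, near the background. Xenobiotic and oxidative stress genes gave 2 of 22 above and 6 below (27.3% against 11.6%), among them the epoxide hydrolase Ephx1 (9.15, 10.85 and 10.23 against 9.12, 8.59 and 8.52, -1.33 ± 0.34 SE, adjusted p = 0.111), with the 2 lungs of high airway signal also highest for Ephx1. The list's median of -0.27 was -0.03 against sham lung 1 alone. Pdk4, which restrains glucose oxidation, read 9.17, 10.08 and 10.14 against 7.66, 8.50 and 8.31 (-1.64 ± 0.43 SE, adjusted p = 0.114).

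Of 23 endothelial genes 1 was above and 5 below, and the list median of -0.11 turned to 0.01 without CHF lung 1. Pecam1, the junction protein of all endothelium, read 10.73, 11.32 and 11.17 in sham lungs 1 to 3 and 10.18, 10.64 and 10.53 in CHF lungs 1 to 3 (-0.62 ± 0.19 SE, adjusted p = 0.13). Vwf, which tethers platelets, read 12.42, 11.60 and 11.79 against 9.83, 11.28 and 11.37 (-1.11 ± 0.36 SE, adjusted p = 0.148), and Tie1, an angiopoietin co-receptor, 9.25, 9.30 and 9.65 against 8.32, 9.08 and 8.999 (-0.60 ± 0.22 SE, adjusted p = 0.182). CHF lung 1 was the lowest lung in these 3 genes, and for Pecam1 sham lung 1 lay just above CHF lung 2. Vcam1, a leukocyte adhesion receptor, was at -0.44 ± 0.17 SE, adjusted p = 0.2. Esm1, an endothelial proteoglycan, was above the sham range in CHF lungs 2 and 3 only (9.04, 9.35 and 9.13 against 9.25, 10.29 and 11.03). It was lower with heart failure in the ketotifen lungs (-2.05 ± 0.35 SE, adjusted p = 0.00763), and the interaction passed (adjusted p = 0.0293). The list median was -0.79 in the ketotifen lungs, where 13 of 23 separated downward.

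Genes that set vessel tone were mixed, with 4 of 24 above and 3 below. The serotonin receptor gene Htr2c is given above. On the constrictor side Tbxas1 is also given above, and Arg1, which competes with nitric oxide synthase for arginine, read 6.57, 4.34 and 6.20 in sham lungs 1 to 3 and 9.13, 7.66 and 8.33 in CHF lungs 1 to 3 (2.67 ± 0.61 SE, adjusted p = 0.0968). On the dilator side Ramp3, which shapes the receptor for adrenomedullin, read 5.75, 4.96 and 5.17 against 8.05, 6.57 and 6.20 (1.64 ± 0.48 SE, adjusted p = 0.126). Vipr1, a receptor for vasoactive intestinal peptide, read 14.01, 14.04 and 14.24 against 12.25, 13.47 and 13.51 (-1.02 ± 0.30 SE, adjusted p = 0.125), and Npr1, the receptor for atrial natriuretic peptide, 8.42, 8.94 and 8.40 against 7.86, 8.17 and 8.24 (-0.50 ± 0.18 SE, adjusted p = 0.169). In the ketotifen lungs Arg1 rose (2.90), and Vipr1 (-1.95) and Npr1 (-0.84) fell. Potassium and calcium channel genes gave 3 of 16 above and 5 below: Orai1, the store-operated calcium channel, read 7.02, 6.21 and 6.90 against 7.82, 7.46 and 7.39 (0.84 ± 0.25 SE, adjusted p = 0.125), and Cacna1c, the voltage-gated channel of smooth muscle, 6.15, 6.21 and 6.56 against 5.66, 5.63 and 5.14 (-0.83 ± 0.25 SE, adjusted p = 0.13). Abcc9, a regulatory subunit of the ATP-sensitive potassium channel of vascular muscle, gave -0.77 ± 0.24 SE, adjusted p = 0.134, the one gene of 18 smooth muscle and pericyte genes that separated, downward. That list's median of -0.44 turned to 0.26 against sham lung 1 alone. Igf1, a growth factor of macrophages and stroma, read 9.68, 8.56 and 9.28 against 11.46, 10.28 and 10.64 (1.62 ± 0.31 SE, adjusted p = 0.0705).

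Matrix genes were close to the background, with 5 of 29 above and 3 below among collagens and matrix enzymes. The 3 members of smallest p were 2 remodelling enzymes and an inhibitor of such enzymes. Timp1, the inhibitor of matrix metalloproteases, read 9.21, 8.51 and 8.22 in sham lungs 1 to 3 and 10.22, 9.45 and 10.32 in CHF lungs 1 to 3 (1.35 ± 0.28 SE, adjusted p = 0.0824), Mmp14, a membrane-bound collagenase, 7.80, 8.23 and 8.28 against 9.51, 8.93 and 8.63 (0.91 ± 0.24 SE, adjusted p = 0.114), and the crosslinking enzyme Loxl2 5.92, 6.06 and 6.37 against 8.38, 7.39 and 7.03 (1.48 ± 0.43 SE, adjusted p = 0.125). Mmp2, which Mmp14 activates, gave -0.52 ± 0.16 SE, adjusted p = 0.14, and was not called. Among the fibrillar collagens, Col1a2 separated the groups upward (11.93, 11.33 and 11.43 against 12.17, 12.02 and 12.34, 0.61 ± 0.26 SE, adjusted p = 0.226). Fibroblast markers gave 0 of 14 above and 2 below. Timp1 (2.83) and Mmp14 (1.11) rose with ketotifen.

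Heart muscle runs along the pulmonary veins of the rat, and cardiomyocyte genes gave 4 of 12 below and 0 above. Sham lung 3 was high for most of them: Myh6, the alpha myosin heavy chain of heart muscle, read 2.71, 3.48 and 11.28 against 2.79, 2.77 and 2.70. Against sham lung 1 alone their median was -0.01. Acta1, the skeletal actin gene, differed from this and read 2.41, 3.16 and 2.70 in sham lungs 1 to 3 and 9.70, 6.62 and 2.84 in CHF lungs 1 to 3, high in CHF lungs 1 and 2.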

How the data were processed

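Values are log2 expression per probe set of Affymetrix rat genome arrays, 1 per lung, as deposited by the authors. Per the submitters' processing notes they used GCRMA with R 2.5.0, with settings not given there. GCRMA corrects background by probe sequence, so that values near 2 to 4 lie near background. Probe sets reaching log2 of 4 in at least 3 of the 12 arrays were kept (16536). Limma 3.58.1 in R 4.3.3 fitted the means of the 4 groups with an intensity trend (8 residual degrees of freedom), with Benjamini-Hochberg adjustment over all probe sets kept, and was checked on simulated data. All adjusted p-values are limma's. A gene stands by its brightest probe set with 1 symbol, unless a called one is named. Per the labels' protocols each group held 3 rats, and no pooling is named. Genes were named if called, if among the 6 of smallest p in a list, if a cell type marker, or if among the 15 next in rank each way. Ccnb2, Cd63, Ctsd, Hdc, Hpgd, Il6, Lamp1, Lamp2, Ly6c, Mcoln1, Ptger3, Ptges2, Ptgs2, Spp1 and Trem2 lie outside this rule and were chosen after their values were seen. Members and the 57 gene lists were chosen with earlier results of these data known. Promoters are RefSeq's, build GRCr8, matched by symbol. Other filters, fits, normalization, replicate block and left-out lungs were tried.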

Additional observations from a re-analysis of the deposited data

Results flagged for a closer look

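In 8 of the genes named, the CHF minus sham difference itself differed between the ketotifen and placebo lungs (limma interaction term over all 16536 probe sets, 61 of which passed an adjusted p of 0.05). The interaction is the ketotifen difference minus the placebo difference, in log2. It was largest for 2 inflammatory mediators: 7.41 for Il6 (adjusted p = 0.00763) and 4.83 for the monocyte attractant Ccl2 (adjusted p = 0.000901). It was 4.09 for the inducible cyclooxygenase gene Ptgs2 (adjusted p = 0.0258). The other 5 were below 0. For Fcrla, the B cell gene, it was -3.70 (adjusted p = 0.0241), for the interferon-induced Ifit1 -3.09 (adjusted p = 0.0279) and for the endothelial gene Esm1 -3.07 (adjusted p = 0.0293). It was -1.57 for Wtap (adjusted p = 0.0242) and -1.33 for Car2 (adjusted p = 0.0336). Each group holds 3 arrays, but the CHF ketotifen group may hold fewer than 3 independent lungs, since its arrays 1 and 3 were nearly alike. Every interaction rests on that group, and the cause was not tested.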

How the results depend on the processing

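The 28 probe sets called became 9 with no filter on low values (8 shared), 210 at an adjusted p under 0.10, 0 with only the 6 placebo arrays and 8291 with array weights. The weights did not converge, and gave sham lung 3 a weight of 35.1. Leaving out 1 placebo lung gave 0 to 1496 calls. Alternatives chosen after seeing the data gave 0 without sham lungs 2 and 3 (810 at an unadjusted p under 0.05) and 6 with CHF ketotifen arrays 1 and 3 averaged. Of the probe sets called, 11 were also called with ketotifen, 6 with no filter and 6 with those arrays averaged. The replicate block gave 27 calls (22 shared). Same-numbered lungs deviated together with r = 0.0137, -0.0099 and 0.0934, and lungs of different number with r from -0.0709 to 0.0517. With 3 lungs a group, these values cannot show whether the numbers pair lungs. Stricter filtering, other eBayes settings and quantile normalization gave 26 to 31. Over 118 genes and 1878 gene and setting pairs, 1578 kept direction and side of the threshold, 128 lost the call, 151 gained it and 21 turned sign. The sign turned in genes with small or uneven differences. Only the 17 called genes could lose a call, and all 17 lost it with only the 6 placebo arrays and also without sham lung 2. Most gains came with array weights (89) or without sham lung 1 (56). With quantile normalization Cd74 was -0.0384 and Ly6c -0.0515. With array weights Kit was -0.26 and S100a8 -0.16. Without sham lungs 2 and 3 the values were -0.153 for Cd74, -1.08 for Kit, -0.18 for Ly6c, 0.0466 for Myh6 and -0.26 for S100a8. Leaving out 1 placebo lung, the differences ran from -0.0882 to 0.185 for Cd74, -0.0044 to 1.61 for Il6, -0.785 to 0.555 for Kit, -0.362 to 0.578 for Ly6c, -0.389 to 0.853 for Ms4a1, -0.652 to 0.334 for Ptgs2 and -0.511 to 1.17 for S100a8. Of 570 list and setting pairs 50 turned the sign of the median, 14 of them without sham lungs 2 and 3.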
